A study of Mus musculus with 9 samples.

Results

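The genes described here encode the initiation and elongation factors of protein synthesis. They were the rows of the deposited expression table whose symbol starts with Eif or Eef followed by a number, less the eIF2 kinases (Eif2ak), the eIF4E-binding proteins (Eif4ebp), the eEF2 kinase (Eef2k) and processed pseudogenes named with -ps. This left 59 of the 53715 listed gene IDs. The rule reads symbols only. The set takes in some genes that carry a factor's name without being a factor: 3 lysine methyltransferases that act on elongation factors (Eef1akmt1, Eef1kmt4, Eef2kmt), the eIF4E transporter Eif4enif1, the eIF1A-domain protein Eif1ad, the multisynthetase complex component Eef1e1, and Eif2c5, whose name is of the Argonaute type and which GENCODE lists as a long intergenic noncoding RNA.

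RNA was sequenced from mouse primary myoblasts, muscle precursor cells grown from tissue, at passage 1. All cells came from the C57BL/10ScSn-Dmdmdx/J strain, the mdx mouse, whose dystrophin gene is mutated, so both groups lack full-length dystrophin and no wild-type cells are compared. The cells received 0.2 mM glycine (3 libraries) or 0.8 mM glycine (6 libraries), and the comparison asks how transcript levels differ between these amounts of the amino acid. Whether a library stands for its own culture or animal is not in the labels, so the p-values cover only how far these libraries scatter, and that scatter may be technical. Because each glycine level has a library series of its own in the labels (Lib1 and Lib2), a batch that followed the series and the glycine level cannot be told apart.

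Translation initiation places the ribosome on the start codon. The small subunit, bound by eIF1, eIF1A, eIF3 and eIF5 and by eIF2 carrying the initiator tRNA, joins an mRNA whose cap is held by eIF4E, which eIF4G bridges to the ribosome and whose structure is opened by the helicase eIF4A with eIF4B or eIF4H. The exchange factor eIF2B recharges eIF2 with GTP, and eIF5B joins the large subunit. During elongation, eEF1A brings aminoacyl-tRNA to the ribosome, the eEF1B subunits recharge eEF1A, eEF2 moves the ribosome by a codon, and eIF5A, which carries the unusual amino acid hypusine, helps at difficult peptide bonds. Muscle cells make large amounts of contractile protein as they differentiate, and eEF1A switches its isoform from Eef1a1 to Eef1a2 in mature muscle.

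Values are TPM, a measure of transcript abundance per length scaled to 1 sum in each library, so levels can be set beside each other between genes. The number of reads behind a value, its depth, is unknown. "Rose" and "fell" mean higher and lower at 0.8 mM and are used of genes with a limma adjusted p under 0.05, adjusted over all 10049 genes tested. Log2 changes are on the log2(TPM + 1) scale, 0.8 minus 0.2 mM, ± SE, and understate the change of low genes. Means are ± SD over 3 and 6 libraries.

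Of the 59 members, 54 had at least 1 TPM in at least 3 libraries and were tested. Eef1a2 (the muscle and neuron isoform of eEF1A), Eif2s3y (the Y-linked copy of eIF2 gamma), Eif4e1b (an oocyte form of eIF4E) and Eif2c5 were listed at 0 in all 9 libraries. Eif5a2, the second eIF5A gene, lay at 0.289, 0.204 and 0.184 TPM at 0.2 mM and between 0.0852 and 0.259 TPM at 0.8 mM, below the filter.

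Levels spanned more than 3 orders of magnitude. Eef1a1 was the most abundant member at 3627 TPM at 0.2 mM and 3107 TPM at 0.8 mM. Next at 0.2 mM came Eif1 (390.4 TPM), Eef1b2 (374 TPM), Eif5a (299.6 TPM) and Eif3k (273 TPM), and at 0.8 mM Eif5a (404 TPM), Eef1b2 (346 TPM), Eif3k (314 TPM) and Eif1 (249 TPM). Over the 9 libraries a mean of at least 100 TPM was reached by 11 members and a mean of at least 10 TPM by 37. Subunits of 1 complex did not share 1 level: within eIF3 the mean ran from 1.83 TPM for Eif3j2 to 300.5 TPM for Eif3k, and the large core subunits Eif3a (10.7 TPM) and Eif3b (8.30 TPM) were near the bottom. Within eIF2, Eif2s2 (beta) had 82.1 ± 5.52 TPM at 0.2 mM against 10.2 ± 0.627 TPM for Eif2s1 (alpha). The plot of member levels by factor shows this spread.

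**Figure D1:**
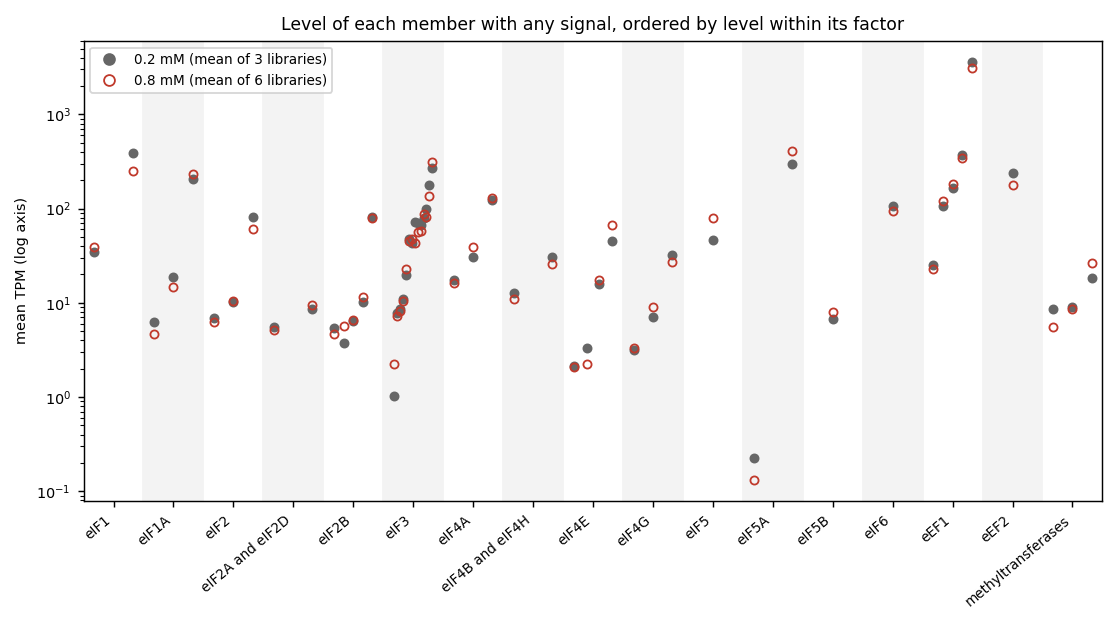
Mean TPM (log axis) of every member with any signal, grouped by factor and ordered by level within it, for the 3 libraries at 0.2 mM (filled grey) and the 6 at 0.8 mM (open red). Within eIF3 the members differ from each other by far more than the groups do, and Eef1a1 stands highest of all.

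Between the glycine levels 6 members rose, 11 fell and 37 did not pass. Of all genes tested, 26.6% passed: 16.7% rose and 9.81% fell. The share that rose was thus lower and the share that fell higher among members than among all genes, a difference that was not tested. Members are abundant, and abundant genes passed more often: among genes with a mean of at least 5 TPM, 25.1% rose and 15.5% fell, beside 5 and 11 of the 48 members at that level. The median log2 change was -0.07 over the 54 members and 0.06 over all genes. The libraries of the 2 groups did not overlap for 20 members (37.0%), beside 28.2% of all genes. Rescaling the libraries moved the split between rises and falls: with median-ratio scaling 5 members rose and 15 fell, and with quantile normalization 4 rose and 16 fell. Eif1ad, Eif3f, Eif4e3 and Eif6 passed as lower under both of these scalings, and Eef1b2 under quantile normalization.

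The changes were modest, from 0.604-fold (Eif3c) to 1.69-fold (Eif5) in mean TPM for genes above 5 TPM. Rises were Eif5, Eif3j2, Eif4e2, Eef1akmt1, Eif5a and Eif3k, of which Eif3j2 met the filter only through its 0.8 mM libraries. Falls were Eif3c, Eif1, Eef2kmt, Eif2s2, Eef2, Eif3h, Eif1a, Eif3e, Eif3m, Eif4h and Eef1a1. For 16 of these 17 the groups did not overlap, Eif3e being the exception. The 17 were picked by a test on the same values, so this lack of overlap is no separate support. The share without overlap among all genes that passed is not given here. The plot of changes by factor shows that rises and falls stood side by side within eIF3. No gene passed limma in eIF2B (5 tested), eIF4A (3) or eIF4G (3), nor among eIF2A and eIF2D, eIF5B and eIF6. Unadjusted p was under 0.05 for 1, 1 and 0 genes of eIF2B, eIF4A and eIF4G, and for Eif6. Groups this small can hold no gene that passed where 26.6% of all genes did.

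**Figure D2:**
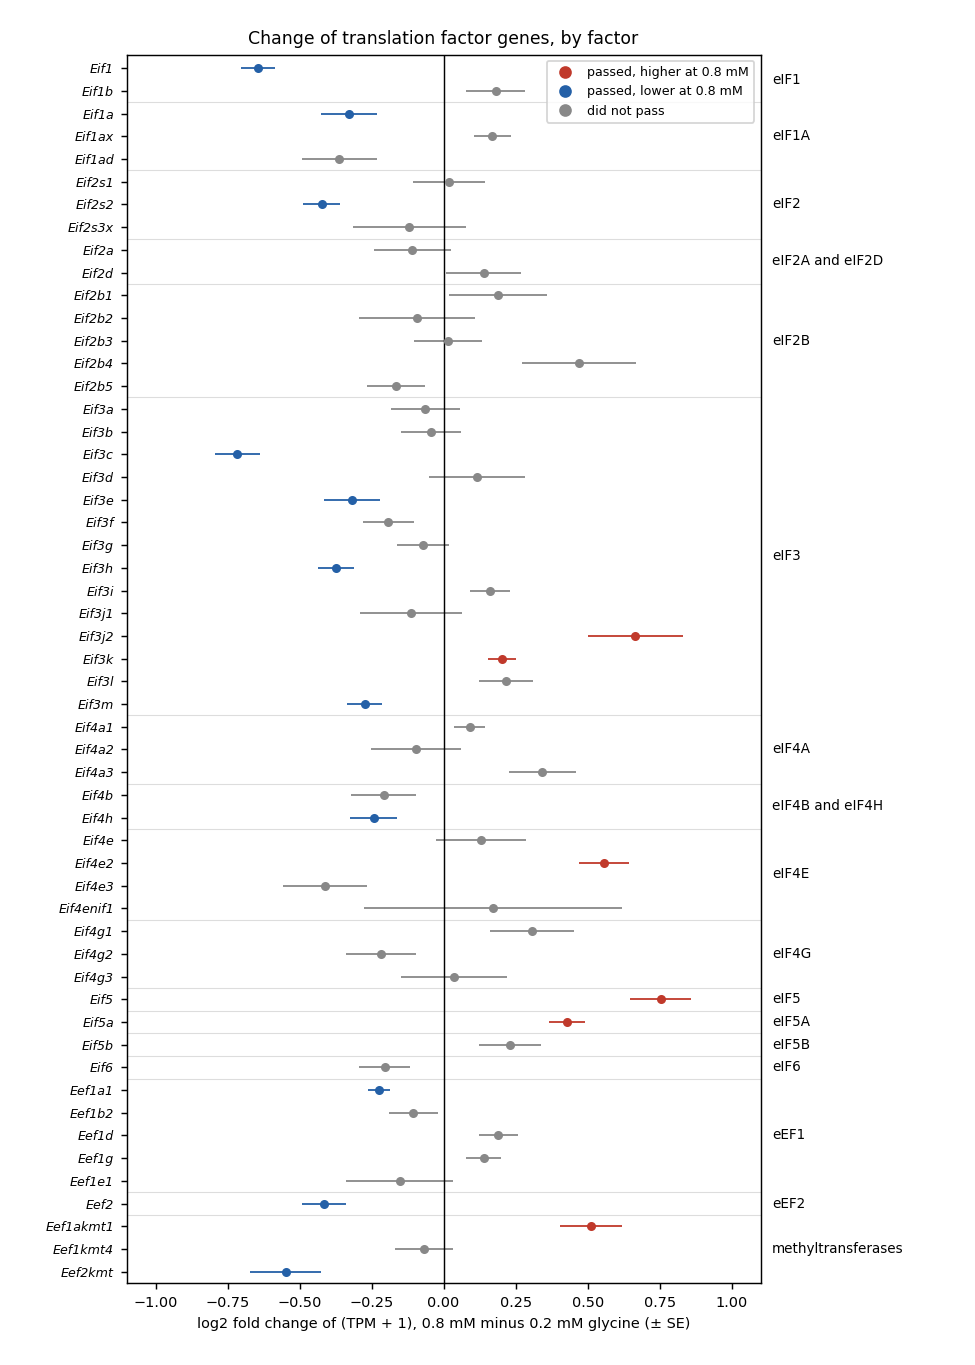
Log2 change of TPM + 1 (0.8 minus 0.2 mM glycine) with its SE for the 54 members tested, grouped by factor. Red points passed and were higher at 0.8 mM (6), blue points passed and were lower (11), and grey points did not pass (37); Eif5 lies farthest right at 0.75 and Eif3c farthest left at -0.72.

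Promoter sequence is shown for the members that changed and carry the E-box CACGTG, the palindrome bound by Myc and related factors, because of 10 short motifs counted it had the highest ratio of its share among members to its share among tested genes. It was chosen after those counts were seen. RefSeq windows of 300 bases (250 before to 50 after the start, GRCm38.p6) were matched by symbol for 46 members. CACGTG occurred in 12 of them (26.1%), beside 12.3% of the 7172 tested genes with a window and 8.09% of all 27025 genes. The 46 include members that were not tested, among them Eef1a2, Eif2s3y and Eif5a2, and Eif5a2 is 1 of the 12. Next came the ETS motif CCGGAAGT, with 17.4% of members, 9.94% of tested genes and 4.31% of all genes. The stretches below are written along the gene's strand with the E-box in capitals.

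Eef2, chr10:81176561-81176620, plus strand, motif from 43 bases before the start: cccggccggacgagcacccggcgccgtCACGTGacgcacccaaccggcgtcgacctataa
Eif3k, chr7:28981900-28981959, minus strand, motif from 44 bases before the start: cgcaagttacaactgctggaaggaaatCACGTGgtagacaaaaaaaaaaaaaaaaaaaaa
Eif4h, chr5:134639473-134639532, minus strand, motif from 96 bases before the start: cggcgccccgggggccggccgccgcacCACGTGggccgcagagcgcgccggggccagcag
Eif5a, chr11:69921428-69921487, minus strand, motif from 74 bases before the start: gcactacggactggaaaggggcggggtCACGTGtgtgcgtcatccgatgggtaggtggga
Eif5a, chr11:69920776-69920835, minus strand, from another start, 178 bases before it: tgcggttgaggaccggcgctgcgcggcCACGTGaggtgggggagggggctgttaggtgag

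Among these genes Eif3k and Eif5a rose while Eef2 and Eif4h fell, so carrying the motif did not go with 1 direction. They were 4 of the 12 changed members with a window. The other motifs, each read on both strands, were TGATGNAA (the amino acid response element, in Eif2s3x alone), TGACGTCA (the cyclic AMP response element, in Eef2 alone) and its core TGACG, the TATA box (TATAAA), the GC box (GGGCGG), the CCAAT box, the ETS motif and the motifs of NRF1 and YY1. TGACG lies within TGACGTCA and can overlap the end of CACGTG. TGATGNAA lay in 2.17% of member windows, 2.73% of tested genes' and 4.51% of all genes', and TGACGTCA in 2.17%, 3.72% and 2.03%. A match is a run of letters, and no binding was measured.

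Start codon selection is governed by eIF1, eIF1A and eIF5. Eif1 (chr11:100319885-100322096, plus strand, GRCm38), which holds the scanning ribosome open and rejects poor start codons, fell. Its level was 362, 420.3 and 388 TPM at 0.2 mM and ran from 229 through a median of 252 to 259 TPM at 0.8 mM. Every library at 0.8 mM was below every library at 0.2 mM, and the log2 change was -0.64 ± 0.06 (adjusted p = 1.41e-05). Its near copy Eif1b had 31.1, 34.8 and 38.1 TPM and then 32.6 to 44.3 TPM, with overlapping groups (0.18 ± 0.10, adjusted p = 0.226). Transcripts of other genes share 19.2% of the 50-base stretches of Eif1 (Emd 9.66%), so reads of Eif1 could be split between them.

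Eif5 (chr12:111538016-111546752, plus strand), which triggers GTP hydrolysis by eIF2 once the start codon is found and counters eIF1 there, showed the opposite pattern. Eif5 was at 38.1, 51.3 and 51.0 TPM at 0.2 mM and at 70.0 to 89.2 TPM (median 79.1) at 0.8 mM. The groups were well apart, with a log2 change of 0.75 ± 0.11 (adjusted p = 0.000336). Eif1 and Eif5 passed in the same direction under each scaling, filter and pseudocount tried and with any single library left out; under the added 1.5-fold threshold both also passed.

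The eIF1A genes encode the partner of eIF1 on the scanning ribosome. Eif1ax, the X-linked and far more abundant copy, had 197, 203 and 224 TPM and then 224 to 262 TPM and did not pass (0.17 ± 0.07, adjusted p = 0.0817; 0.0434 without 0.2 mM library 3). Eif1a, the autosomal copy, fell from 17.9, 19.9 and 18.4 TPM to between 12.8 and 16.7 TPM. Its groups did not overlap, and the log2 change was -0.33 ± 0.10 (adjusted p = 0.0292). The call for Eif1a was lost without 0.2 mM library 1 (0.0568), 2 (0.115) or 3 (0.0676) and without 0.8 mM library 4 (0.05002) or 6 (0.0522). Eif1ad, the eIF1A-domain protein, had 6.20 ± 0.695 and 4.62 ± 0.648 TPM and did not pass (adjusted p = 0.0626; 0.0461 without 0.8 mM library 4, 0.0240 with either rescaling).

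eIF2 delivers the initiator tRNA, and eIF2B recharges it. Of the eIF2 subunits, Eif2s2 (beta) fell. Eif2s2 (chr2:154871410-154892935, minus strand) stood at 76.1, 86.9 and 83.5 TPM at 0.2 mM and at 57.8 to 64.9 TPM (median 60.5) at 0.8 mM, without overlap (-0.42 ± 0.06, adjusted p = 0.000604). Eif2s1 (alpha, the subunit that stress kinases phosphorylate) was at 10.2 ± 0.627 and 10.4 ± 1.6004 TPM (adjusted p = 0.930). Eif2s3x (gamma, which binds GTP and the tRNA) was at 6.98 ± 2.16 and 6.23 ± 1.25 TPM (adjusted p = 0.706), with overlapping groups for both. Eif2s3x shares 34.6% of its 50-base stretches with transcripts of other genes, mostly Gm2223, so its reads could be split between them.

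No eIF2B subunit passed. The most abundant, Eif2b2 (beta), scattered widely, with 86.3, 82.0 and 76.1 TPM at 0.2 mM and 47.3 to 102 TPM at 0.8 mM (-0.09 ± 0.20, adjusted p = 0.785). Eif2b4 (delta) had the largest change of the complex at 0.47 ± 0.20, from 3.74 ± 0.861 to 5.63 ± 1.53 TPM, with overlapping groups (adjusted p = 0.110). Eif2a and Eif2d, alternative carriers of initiator tRNA, did not pass either (adjusted p = 0.609 and 0.487).

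eIF3, the largest initiation factor, is a scaffold on the small ribosomal subunit. Of its 14 genes tested, 4 fell (28.6%), 2 rose (14.3%) and 8 did not pass, beside 9.81% and 16.7% of all genes and 15.5% and 25.1% of those with a mean of at least 5 TPM. The summed level of the complex was 978 ± 18.3 TPM at 0.2 mM and 924 ± 22.1 TPM at 0.8 mM, and the sum hides opposite changes among subunits. A sum over members chosen this way has no test.

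Eif3c (chr7:126546455-126566411, minus strand), a core subunit that touches eIF1 and eIF5, showed the largest fall of all members. It had 67.8, 74.6 and 73.8 TPM at 0.2 mM and 39.5 to 48.6 TPM (median 44.0) at 0.8 mM. No library at 0.8 mM came near those at 0.2 mM, and the log2 change was -0.72 ± 0.08 (adjusted p = 4.91e-05). Like Eif1, it passed under every alternative run and with any library left out.

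Eif3h (chr15:51786558-51865523, minus strand), a peripheral subunit of the MPN-domain pair, fell from 169, 174 and 192 TPM to 129 to 147 TPM without overlap (-0.37 ± 0.06, adjusted p = 0.00102). Its MPN-domain partner Eif3f did not pass, at 66.9 ± 8.004 and 58.3 ± 4.33 TPM (adjusted p = 0.142), but passed as lower with median-ratio scaling (0.0383) and quantile normalization (0.0214). Eif3m, which links the peripheral subunits, fell from 97.9, 101 and 96.2 TPM to 76.5 to 86.2 TPM, again without overlap (-0.27 ± 0.06, adjusted p = 0.00693). Transcripts of other genes share 20.3% of the 50-base stretches of Eif3h and 17.2% of those of Eif3m.

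Eif3e, also known as Int6, fell with overlapping groups. The libraries at 0.2 mM had 74.7, 78.6 and 59.0 TPM, the last of which lay within the 0.8 mM range of 52.3 to 62.3 TPM. The log2 change was -0.32 ± 0.10 (adjusted p = 0.0333). Eif3e no longer passed without 0.2 mM library 1 (0.128) or 2 (0.153), or without 0.8 mM library 3 (0.0612), 5 (0.0577) or 6 (0.0586), with no filter on low values (0.0717) or without the variance trend (0.0649).

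Eif3k, a small subunit that vertebrates have and budding yeast lacks, was the most abundant of the complex and rose. It had 266, 265 and 287 TPM at 0.2 mM and 298 to 329 TPM (median 315) at 0.8 mM, without overlap (0.20 ± 0.05, adjusted p = 0.0104). The call was lost without 0.2 mM library 1 (0.0505) or 2 (0.0502), with median-ratio scaling (0.106) and without the variance trend (0.0879), and quantile normalization turned the direction (-0.02, adjusted p = 0.827). Eif3l, with which Eif3k pairs, did not pass, at 19.6 ± 0.919 and 23.0 ± 2.32 TPM (adjusted p = 0.121).

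Eif3j2 rose from 1.38, 0.836 and 0.879 TPM to 1.74 to 3.16 TPM, the largest fold of any member at 2.16 and one of the lowest levels (0.67 ± 0.17, adjusted p = 0.0123). The libraries at 0.836 and 0.879 TPM lay under the filter's 1 TPM, so this gene was tested only through its level at 0.8 mM. Eif3j2 is a near copy of Eif3j1, the loosely bound subunit at the mRNA entry channel, and 91.8% of its 50-base stretches occur in transcripts of other genes, nearly all in Eif3j1. Reads of the 2 copies could therefore be split either way, and the value is uncertain. Without 0.2 mM library 2 or 3 Eif3j2 did not pass (0.0591 and 0.0530). Eif3j1 itself had 7.83 ± 0.459 and 7.32 ± 1.79 TPM (adjusted p = 0.689). Of the remaining subunits, Eif3d carries a caveat, since 43.3% of its exonic bases overlap Gm17638 on the other strand. Whether counting used strand is not given.

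The eIF4 genes recruit the capped mRNA. None of the 3 eIF4A helicase genes passed. Eif4a1, the main form, had 121, 118 and 129 TPM and then 122 to 135 TPM (0.09 ± 0.05, adjusted p = 0.262). Transcripts of other genes share 28.4% of the 50-base stretches of Eif4a1, mostly Eif4a-ps4. Eif4a2 was at 17.4 ± 3.34 and 16.2 ± 2.69 TPM (adjusted p = 0.706). Eif4a3, the helicase of the exon junction complex rather than of initiation, moved from 30.5 ± 1.99 to 39.2 ± 5.61 TPM and just missed the threshold although its groups did not overlap (0.34 ± 0.12, adjusted p = 0.0513; 0.0278 without 0.8 mM library 5 and 0.0379 without library 6). Eif4a3 also passed in 5 other settings, among them the mean filter of 5 TPM (0.0321) and library weights (0.0386). In the remaining settings it did not, with 0.136 after either rescaling.

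Of the helicase cofactors, Eif4h was called lower on the narrowest margin of all members. It had 31.3, 31.2 and 30.4 TPM at 0.2 mM and 23.3 to 28.9 TPM at 0.8 mM, with no overlap (-0.24 ± 0.08, adjusted p = 0.0492). The call was lost on leaving out any library but 0.8 mM library 2, with adjusted p of 0.133, 0.126 and 0.0928 without 0.2 mM libraries 1, 2 and 3 and of 0.0787, 0.0630, 0.0527, 0.0769 and 0.0817 without 0.8 mM libraries 1, 3, 4, 5 and 6. Smaller pseudocounts (0.0523 and 0.0502), no filter (0.0676) and no variance trend (0.0805) also ended it. Eif4b did not pass, at 12.8 ± 0.647 and 10.97 ± 1.297 TPM (adjusted p = 0.214).

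The cap-binding genes differed among themselves. Eif4e2 (chr1:87213914-87240488, plus strand), also called 4EHP, binds the cap without recruiting eIF4G and is known for repressing particular mRNAs. It was the most abundant of the family and rose, from 41.7, 50.01 and 42.8 TPM to 59.9 to 72.3 TPM (median 66.7). The groups did not overlap, with a log2 change of 0.56 ± 0.09 (adjusted p = 0.000719). Eif4e, the canonical cap-binding factor, was at 15.5, 12.6 and 19.1 TPM and then 13.8 to 20.99 TPM (0.13 ± 0.16, adjusted p = 0.596). Eif4e3, another cap-binding form, was at 4.09, 3.13 and 2.72 TPM and then 1.94 to 2.92 TPM and did not pass (-0.41 ± 0.15, adjusted p = 0.0600; 0.0341 without 0.8 mM library 1, 0.0327 after median-ratio scaling and 0.0309 after quantile normalization). Eif4enif1, which carries eIF4E into the nucleus, scattered from 0.582 to 5.02 TPM among the 0.2 mM libraries alone, and its difference cannot be read (0.17 ± 0.45, adjusted p = 0.822).

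The scaffold genes did not pass. Eif4g2 (DAP5, which lacks the eIF4E-binding part) was the most abundant at 31.9 ± 5.05 and 27.2 ± 3.27 TPM (adjusted p = 0.229). Eif4g1 was at 7.10 ± 0.667 and 9.12 ± 1.68 TPM (adjusted p = 0.151), and Eif4g3 at 3.13 ± 0.230 and 3.33 ± 0.983 TPM (adjusted p = 0.909). Across initiation the subunit joining factor Eif5b (6.77 ± 1.11 and 8.06 ± 0.473 TPM, adjusted p = 0.151) and Eif6, which keeps free large subunits apart (108 ± 6.42 and 93.6 ± 9.43 TPM, adjusted p = 0.113; 0.0479 without 0.8 mM library 2, 0.0296 after median-ratio scaling and 0.0124 after quantile normalization), did not pass.

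Eif5a (chr11:69916714-69921958, minus strand), the hypusine-bearing factor now seen mainly as an elongation and termination factor, rose. It had 291, 299.9 and 307 TPM at 0.2 mM and 369 to 457 TPM (median 397) at 0.8 mM, with a wide gap between the groups. The log2 change was 0.43 ± 0.06 (adjusted p = 0.000447), and it passed with any library left out, though not under quantile normalization (adjusted p = 0.0727).

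Elongation factors proper went the other way or did not pass. Eef1a1 (chr9:78478449-78489151, minus strand), which carries aminoacyl-tRNA to the ribosome, fell from 3562, 3585 and 3735 TPM to 2949 to 3259 TPM (median 3116). The groups did not overlap, and the log2 change of -0.22 ± 0.04 (adjusted p = 0.00162) was the smallest among the falls. Without the variance trend its adjusted p was 0.0610. Other genes' transcripts hold 39.4% of its 50-base stretches, Gm13456 above all, so part of its reads could have been given to copies.

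Eef2 (chr10:81176631-81182498, plus strand), the translocase, fell from 227, 227 and 263 TPM to 163 to 203 TPM (median 178). The groups did not overlap (-0.42 ± 0.08, adjusted p = 0.00205). The exchange subunits of eEF1B did not pass: Eef1b2 (alpha) had 374 ± 46.5 and 346 ± 25.7 TPM (adjusted p = 0.414; 0.0123 with quantile normalization), and Eef1d (delta) had 106 ± 5.96 and 121 ± 7.62 TPM (adjusted p = 0.0608; 0.0393 without 0.8 mM library 5). Eef1g (gamma), which anchors the complex, had 165 ± 3.43 and 182 ± 11.4 TPM (adjusted p = 0.122) and shares 44.2% of its 50-base stretches with other genes, mostly Gm4366. Eef1e1 was at 25.1 ± 3.88 and 22.8 ± 5.32 TPM (adjusted p = 0.603).

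The summed TPM of all 59 members was 7212 ± 137 at 0.2 mM and 6599 ± 233 at 0.8 mM. Without Eef1a1 the sums were 3584 ± 65.6 and 3493 ± 126 TPM, so most of the gap lay in that gene.

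Methyltransferases that modify elongation factors moved in opposite directions. Eef1akmt1, which methylates a lysine of eEF1A, rose from 19.0, 17.8 and 18.1 TPM to 22.9 to 29.8 TPM (median 27.3) without overlap (0.51 ± 0.11, adjusted p = 0.00469). Eef2kmt, which methylates a lysine of eEF2, fell from 8.26, 7.88 and 9.71 TPM to 4.499 to 6.81 TPM, also without overlap (-0.55 ± 0.12, adjusted p = 0.00704). For Eef2kmt 17.6% of exonic bases overlap genes on the other strand, mostly Alg1. Eef1kmt4 was at 9.08 ± 0.750 and 8.62 ± 0.724 TPM (adjusted p = 0.677). Of its exonic bases 30.7% overlap Gm49333, with which it shares 27.9% of its 50-base stretches. The plot of the members that passed shows each library.

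**Figure D3:**
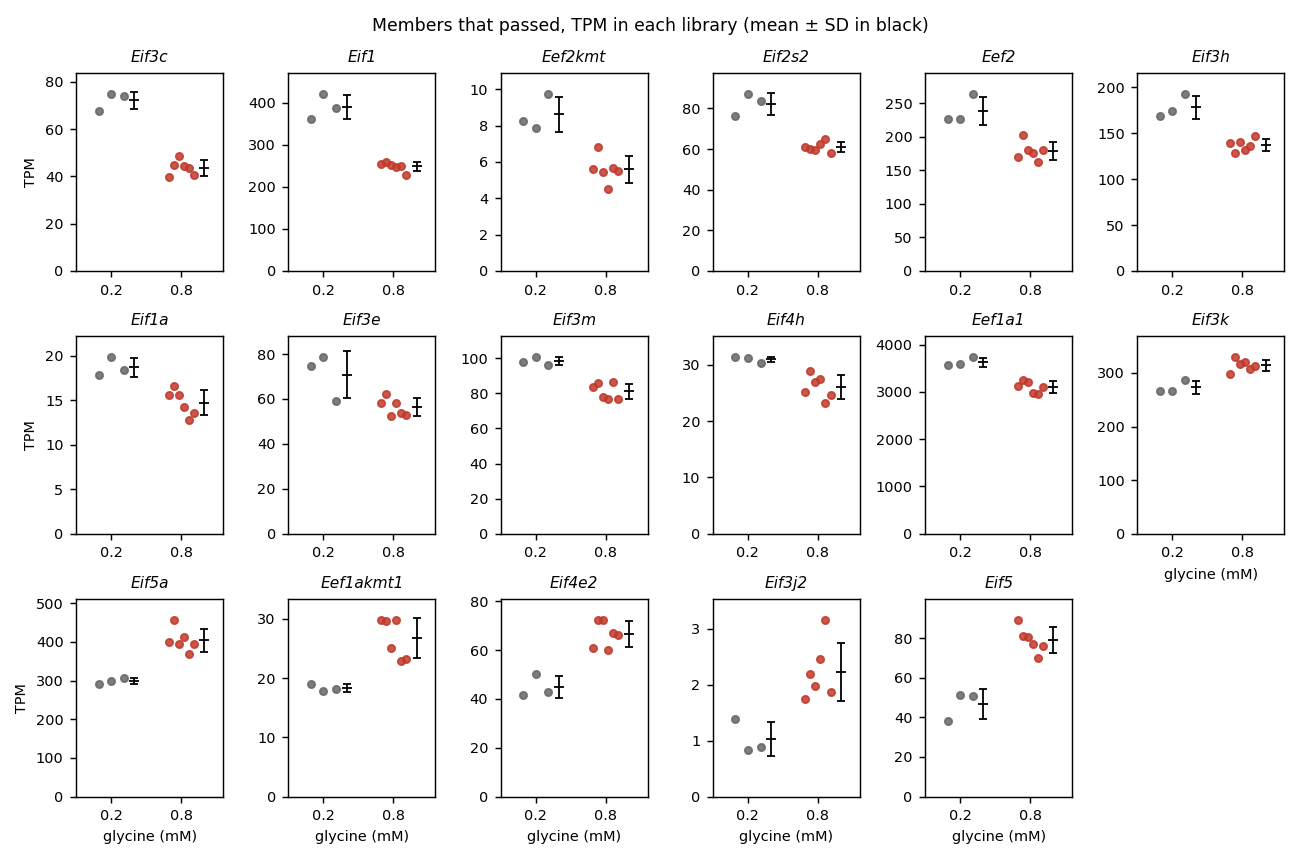
TPM in each library (points, linear axis from 0) with mean ± SD (black) at 0.2 mM (3 libraries, grey) and 0.8 mM glycine (6 libraries, red) for the 17 members that passed, ordered by log2 change. The groups are apart in every panel but that of Eif3e, where 1 library at 0.2 mM (59.0 TPM) falls within the 0.8 mM range.

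Several factors have near copies, and the share of a copy within its pair does not depend on scaling between libraries. Of 11 pairs listed, 8 had both genes above the filter, and the other 3 lacked Eef1a2, Eif5a2 or Eif2s3y. Shares were compared by a two-sided exact permutation test over the 84 splits into 3 and 6 libraries, whose smallest p is 0.0238, with Benjamini-Hochberg adjustment over 8 pairs. For 5 pairs the groups did not overlap, and each had that smallest p and an adjusted p of 0.0381.

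Eif1b made up 7.91, 7.65 and 8.92% of the sum of Eif1 and Eif1b at 0.2 mM and 11.5 to 14.9% at 0.8 mM. Eif1ax made up 91.7 ± 0.673% and then 94.0 ± 0.714% of its pair with Eif1a. Eif4e3 went from 17.7 ± 4.61 to 11.5 ± 1.03% of its pair with Eif4e, with a narrow gap between 12.44% (lowest at 0.2 mM) and 12.35% (highest at 0.8 mM). In the first 2 of these 3 pairs the share moved while 1 of the genes itself did not pass. Of Eif4e3 and Eif4e neither passed by itself (limma adjusted p = 0.0600 and 0.596).

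Eif4g2 made up 81.6 ± 2.88% of the sum with Eif4g1 at 0.2 mM and 74.9 ± 3.47% at 0.8 mM, where neither gene passed by itself. The gap was again narrow, between 78.28% (lowest at 0.2 mM) and 78.02% (highest at 0.8 mM). Eif3j2 made up 11.6 ± 2.70% and 24.2 ± 8.02% of its pair with Eif3j1, subject to the split of their shared reads. That pair was computed only because Eif3j2 met the filter through its 0.8 mM libraries. The other 3 shares did not differ by the test: Eif4e2 with Eif4e (74.0 ± 5.48 and 79.3 ± 3.43%, exact adjusted p = 0.159), Eif4a2 with Eif4a1 (12.4 ± 2.24 and 11.02 ± 1.82%, exact adjusted p = 0.381) and Eif4g3 with Eif4g1 (30.7 ± 2.87 and 26.9 ± 7.23%, exact adjusted p = 0.429). The log2 ratio of the paired genes, each as TPM + 1, was also tried in place of the share. No pair passed (exact adjusted p between 0.0635 and 0.114 for the 5 pairs without overlap). Eif1b, Eif1ax and Eif4g2 stayed at the smallest p, and 0.0635 is as low as 3 tied pairs of 8 allow. The added 1 weighs most on low genes, here Eif3j2 (exact adjusted p = 0.0952) and Eif4e3 (0.114). This setting therefore does not test the shares alone. Leaving out a library could not be read: the smallest p is 0.0714 with 2 against 6 libraries and 0.0357 with 3 against 5, and the 5 pairs had an adjusted p of 0.0571 whichever 0.8 mM library was left out, as low as 5 pairs tied at that smallest p allow.

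**Figure D4:**
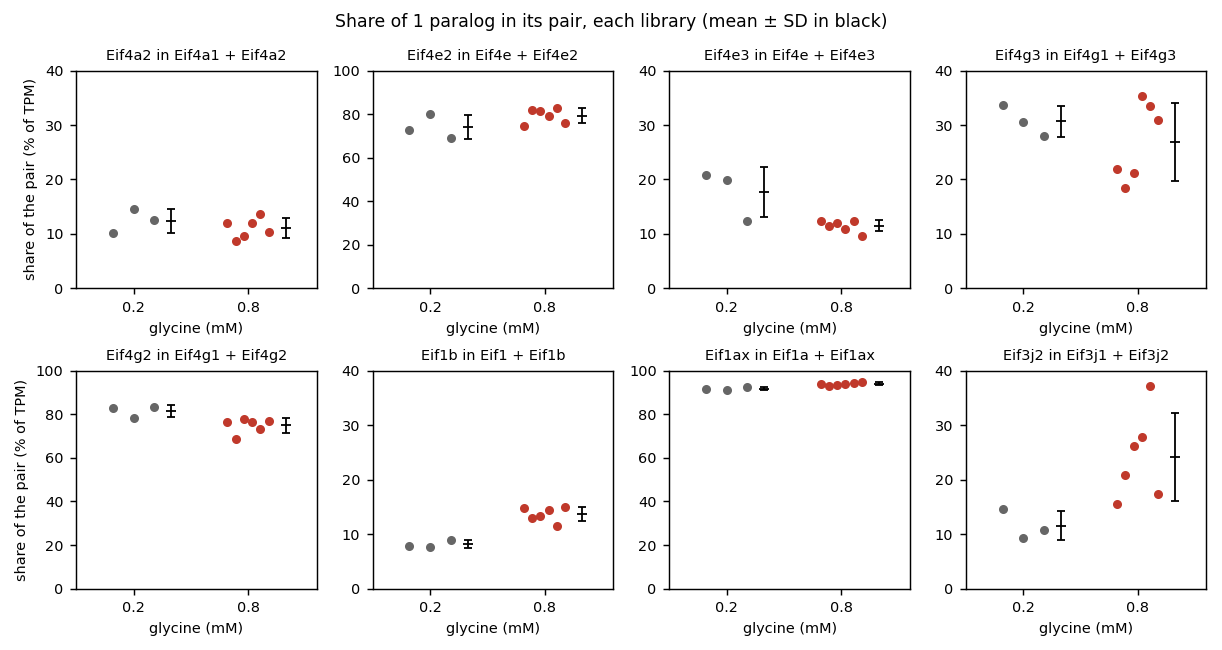
Share of the named gene in the summed TPM of its pair (percent) in each library, with mean ± SD in black, at 0.2 mM (grey, 3 libraries) and 0.8 mM (red, 6 libraries); the vertical ranges differ between panels. Eif1b rises from about the 8.16% mean to 13.7% of its pair, and for Eif4g3 the 0.8 mM libraries lie at 18.4 to 21.9% (libraries 1 to 3) or 30.8 to 35.4% (libraries 4 to 6).

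Regulators of these factors were taken from a list of 28, of which 25 were tested, 0 rose by limma (4 at an unadjusted p under 0.05, and 1 at the adjusted threshold without the variance trend) and 4 fell, beside 16.7% and 9.81% of all genes. With no filter on low values 2 fell, Dhps (0.0562) and Denr (0.0805) being lost. Ppp1r15a (GADD34), which directs the phosphatase that restores eIF2 alpha, fell most. It lay between 18.1 and 18.4 TPM at 0.2 mM and between 3.66 and 5.11 TPM at 0.8 mM, without overlap (-1.86 ± 0.11, adjusted p = 4.46e-07). Eif4ebp1, the repressor that holds eIF4E, fell from 147 to 156 TPM to 83.9 to 98.4 TPM (-0.70 ± 0.07, adjusted p = 1.92e-05).

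Dhps, which starts the synthesis of hypusine on eIF5A, fell from 18.4 ± 3.88 to 11.6 ± 2.41 TPM while Eif5a itself rose (-0.63 ± 0.17, adjusted p = 0.0209; 0.107 without 0.2 mM library 2). Dohh, which completes hypusine, did not pass, at 14.4 ± 1.36 and 17.0 ± 1.58 TPM (adjusted p = 0.115). Denr, a recycling and reinitiation factor, fell with overlapping groups, from 106 ± 16.4 to 77.4 ± 12.3 TPM (-0.45 ± 0.14, adjusted p = 0.0306). Denr did not pass without 0.2 mM library 1 (0.141) or 3 (0.0685), or without 0.8 mM library 1 (0.0516) or 4 (0.0535), nor without the variance trend (0.0531). Of the eIF2 kinases, Eif2ak1, Eif2ak2 and Eif2ak4 (GCN2, the sensor of uncharged tRNA) did not pass (adjusted p = 0.0998, 0.0712 and 0.456), and Eif2ak3 (PERK) was below the filter.

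Of the 5 termination and recycling factors tested, 0 passed by limma, with 3 at an unadjusted p under 0.05 (Etf1 and Abce1 lower, Pelo higher), where 26.6% of all genes passed. Among the 11 mitochondrial translation factors, Tufm, the mitochondrial counterpart of eEF1A, rose from 14.6 ± 1.74 to 19.1 ± 0.771 TPM (0.37 ± 0.09, adjusted p = 0.00984; 0.0533 without 0.2 mM library 2). Mrrf, which recycles mitochondrial ribosomes, fell from 16.7 ± 3.26 to 8.88 ± 2.61 TPM (-0.86 ± 0.20, adjusted p = 0.00886). Those are 9.09% each way, beside 16.7% risen and 9.81% fallen of all genes. The other 9 did not pass, and neither did the selenocysteine factors Eefsec and Secisbp2 (adjusted p = 0.481 and 0.527).

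Some factor mRNAs begin with a terminal oligopyrimidine tract, as do those of ribosomal proteins, and are known to be translated together under growth signals. Of 9 members known for it, 4 fell (Eef1a1, Eef2, Eif3h and Eif3e) and 0 rose (2 higher at an unadjusted p under 0.05, Eef1d and Eef1g), with a median log2 change of -0.21. Of the 45 other members tested, 7 fell (15.6%) and 6 rose (13.3%), with a median of 0.02. Of 81 cytosolic ribosomal protein genes tested, 51 fell (63.0%) and 5 rose (6.17%), with a median of -0.22. Over all genes 9.81% fell, 16.7% rose and the median was 0.06; at a mean of at least 5 TPM, 15.5% fell and 25.1% rose. Without the variance trend 2 of the 9 and 37 of the 81 fell. Eef1d and Eef1g, also of the 9, had changes of 0.19 and 0.14 and did not pass.

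Markers of cell types that primary muscle cultures can hold moved with the glycine level. The summed level of 9 muscle markers was 652 to 754 TPM at 0.2 mM and 2262 to 2862 TPM at 0.8 mM. Of the 9, 8 rose (Myf5, Myod1, Itga7, Des, Myog, Ckm, Cdh15 and Actc1) and Pax7 did not pass. Beside these stand 16.7% risen of all genes and 25.1% of those with a mean of at least 5 TPM. For 10 macrophage and leukocyte markers the sums were 1861 to 2030 and 2056 to 2501 TPM (4 rose, 1 fell), and for 6 fibroblast markers 2247 to 2623 and 2612 to 3178 TPM (4 rose). Endothelial markers summed to 1.82 to 2.10 and 3.99 to 5.70 TPM, with Tek and Kdr under 1 TPM throughout, and the 2 tested, Pecam1 and Cdh5, rose. No marker was at 0 in all libraries. The share of TPM in ribosomal RNA genes and Yam1 was 23.1% and 20.98%, and in mitochondrially encoded genes 3.33% and 3.38%. Mitochondrial ribosomal RNA genes fall in both of these sets. The part of the markers and of these shares in the changes of the factors was not tested. In bulk RNA fewer cells of a type and less RNA per cell cannot be told apart.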

How the data were processed

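The authors deposited TPM for 9 libraries in 1 table. Per the labels' protocols, RNA came from a Trizol extraction and went into Illumina TruSeq libraries. Per the submitters' processing notes HISAT2 2.0.5, StringTie 1.3.3 and DESeq2 were used with mm10; their order, the annotation and the strand setting are not given in the sources used. Because TPM are not counts, genes were tested with limma 3.58.1 (R 4.3.3) on log2(TPM + 1), lmFit and eBayes with trend, over the 10049 genes with at least 1 TPM in at least 3 libraries, adjusted by Benjamini-Hochberg. No pair of libraries held identical values. All 59 member IDs matched GENCODE M21 (GRCm38) without their version and 52 with it; shared 50-base stretches were counted in its transcripts. Eef1kmt4 is Eef1akmt4 there. Permutation tests used SciPy 1.17.1, with 2 times the smaller tail as the two-sided p. The limma script was first tested on simulated data. Named are every member that passed, the most abundant of each factor, listed paralogs and list genes that passed; others named were chosen after their values were seen. Members and lists were chosen with earlier results of these data known. Alternatives were pseudocounts, filters, scalings, TPM without mitochondrial genes, variance options, library weights, a 1.5-fold threshold, each library left out and a replicate block. TPM without ribosomal RNA genes and Yam1, the alternatives for list genes, the permutation by absolute difference and the motifs were chosen after seeing the data. Cell type markers and ribosomal protein genes followed fixed symbol lists.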

Additional observations from a re-analysis of the deposited data

Results flagged for a closer look

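Among the 6 libraries at 0.8 mM, 5 of 63 quantities checked had 1 library far from the rest. This was judged by the gap to its nearest neighbour as a share of the group's range. The 63 were not all member TPM, but the 5 were. Chance alone gives such a gap in about 1 in 20 groups. Eif4b had its lowest value in library 3 (8.36 TPM, others 11.1 to 11.8; gap 0.790 of the range). Eif1ax was highest in library 6 (262 TPM, others 224 to 236; 0.698). Eif4e3 was highest in library 1 (2.92 TPM; 0.687). Eif5a2 was highest in library 6 (0.259 TPM; 0.669). Eif1 was lowest in library 6 (229 TPM, others 248 to 259; 0.650), and it passed without that library too.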

How the results depend on the processing

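Asking for 1.5-fold as well left 2 members that rose and 2 that fell. With 1 library left out, 4 to 8 rose and 8 to 12 fell. For the paralog shares, 0 pairs passed with 1 library left out, a loss the design fixes, since 5 pairs tied at the smallest p of such splits cannot pass. With the log2 ratio of TPM + 1, 0 passed, a result shaped by the added 1 and by the number of pairs tied at the smallest p. When the two-sided p was taken on the absolute difference, 4 of the 5 passed, Eif3j2 being lost (exact adjusted p = 0.0571). Quantile normalization turned Eif3k to -0.0159. Apart from the fits to libraries 1 to 3, the other settings kept the numbers of rises and falls within 1.5 times. Median-ratio scaling moved the median of all genes from 0.06 to -0.003 and quantile normalization to -0.02, shifts under 0.1.

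Libraries 1 to 3 share numbers between the groups. Their deviations correlated at 0.0229, 0.0300 and 0.0812, and not every library correlated best with its own number. With so few libraries this cannot tell whether a number marks a shared animal or batch, and the labels do not say. With the number as a replicate block, 5 members rose and 5 fell, beside 7 and 7 for the same 6 libraries without the block. For the paralog shares the block left 0 pairs, where 3 sign flips cannot give a p under 0.25. The depth behind TPM is unknown, so its effect on low genes such as Eif3j2 cannot be given. Within the 0.8 mM group, libraries 1 to 3 lay wholly apart from libraries 4 to 6 for some members. Eef1a1 had 3131, 3259 and 3211 TPM in the former and 2987.5, 2949 and 3100 TPM in the latter. Eef1g had 189, 199 and 188 TPM, then 172, 175 and 170 TPM. For others, such as Eif2s2 (60.9, 60.0 and 59.4, then 62.5, 64.9 and 57.8 TPM), the sets overlapped. The members that split this way were not counted, and no cause was tested.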
